A study of Mus musculus with 38 samples.

Results

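CHD1 conditional knockout (cKO) 2D2 T cells taken from the inflamed central nervous system (CNS) were compared with CHD1 cKO 2D2 T cells taken from the draining lymph nodes (dLN). The 8 libraries used, of 38 in the series, are the 4 labelled cKO in the CNS and the 4 labelled cKO in the dLN. The 2D2 receptor recognises a peptide of myelin oligodendrocyte glycoprotein, and experimental autoimmune encephalomyelitis (EAE) is the mouse model of T cell driven CNS inflammation that such cells cause. Naive 2D2 cells from Chd1 cKO donors (genotype label Chd1 KO, C57/B6) were turned into Th17Inf cells in culture, transferred into WT recipients, and sorted as 2D2+ cells from both organs at the peak of EAE. Libraries made in the same way from Chd1 WT donor cells, 3 from the CNS and 3 from the dLN, show the tissue difference in cells that keep Chd1. Every group therefore shares the culture step, the transfer and a WT host. The driver of the Chd1 deletion, the age and sex of the mice, and whether each library stands for 1 recipient are not given in the sources used here, so the spread between libraries may be partly technical.

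A T cell enters a lymph node with homing receptors such as CCR7 and leaves it along a gradient of sphingosine-1-phosphate, read by S1PR1. KLF2 and FOXO1 keep this trafficking set on in resting cells, and TCF1 and LEF1 keep a self-renewing reserve. In the CNS, transferred T cells meet myelin peptide again on myeloid cells, and renewed receptor signalling is known to switch on cytokines, chemokines and checkpoint receptors. CHD1 is a chromatin remodeller that binds trimethylated lysine 4 of histone H3 and is known for its part in active transcription.

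The organ came with other differences that cannot be told apart from it. CNS tissue was minced, digested warm with collagenase and spun through a density gradient, whereas lymph nodes were only dispersed mechanically, per the labels' protocols. The CNS and dLN counts also came in separate tables, joined here by gene symbol. The cKO CNS libraries held 4911109 to 6262849 counts and the cKO dLN libraries 3643785 to 5158450. The share of counts on repeats and ribosomal RNA was 13.1 to 20.9% in cKO CNS libraries, against 42.3 to 59.7% in cKO dLN libraries. The dLN levels therefore rest on fewer informative counts. Levels are depth-scaled counts (CPM, after trimmed-mean scaling), always listed for libraries 1, 2, 3 and 4 in that order. Fold changes are log2 values of CNS over dLN with their standard error, and a gene was called where edgeR's quasi-likelihood test gave a Benjamini-Hochberg adjusted p under 0.05 over all 11589 genes tested.

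Most T cell receptor beta chain counts were those of the 2D2 receptor. Trbv16, the beta chain segment of the 2D2 receptor, made up 99.0 to 99.6% of all Trbv counts in cKO CNS libraries, against 91.8 to 98.7% in cKO dLN libraries. Cd3e, a chain of the T cell receptor complex, stood at 596, 368, 607 and 625 CPM in cKO CNS and 754, 598, 659 and 635 CPM in cKO dLN libraries (log2 fold change -0.27 ± 0.15, adjusted p = 0.146). CNS library 2 was the low one. Of 24 genes of T cell identity and receptor signalling, 9 were called lower in the cKO CNS libraries and 2 higher. Their median log2 fold change was -0.23, and 22.7% of all genes tested were called lower. In WT cells 4 of the 24 were called higher in the CNS and 1 lower. Chd1 itself (ENSMUSG00000023852.14, chromosome 17 from 15704967 to 15772610 on GRCm38) was counted at 5.15, 5.300, 2.88 and 4.29 CPM in cKO CNS and 4.93, 6.56, 3.09 and 4.01 CPM in cKO dLN libraries (-0.08 ± 0.26, adjusted p = 0.83). WT means were 4.54 ± 0.462 CPM in the CNS and 5.77 ± 0.281 CPM in the dLN (SD, n = 3 each). The counts did not separate cKO from WT libraries; since the deleted part of the gene is not given in the sources used here, they do not check the label.

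The tissue difference reached across a large part of the transcriptome. In cKO cells 2854 genes were called higher in the CNS and 2626 lower, which is 24.6% and 22.7% of those tested (47.3% together), and 1547 and 1235 of them by at least 1 log2 unit. In 40.0% of genes tested the 4 CNS and 4 dLN libraries did not overlap. The median log2 fold change over all genes was -0.02 in cKO and -0.01 in WT cells. In WT cells 1367 genes were called higher and 571 lower (11.8% and 4.93%), from 3 libraries a group. The difference between the genotypes in the tissue effect, the interaction, was called for 13 genes (0.112%). Counts in gene lists are to be read against these shares.

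**Figure D1:**
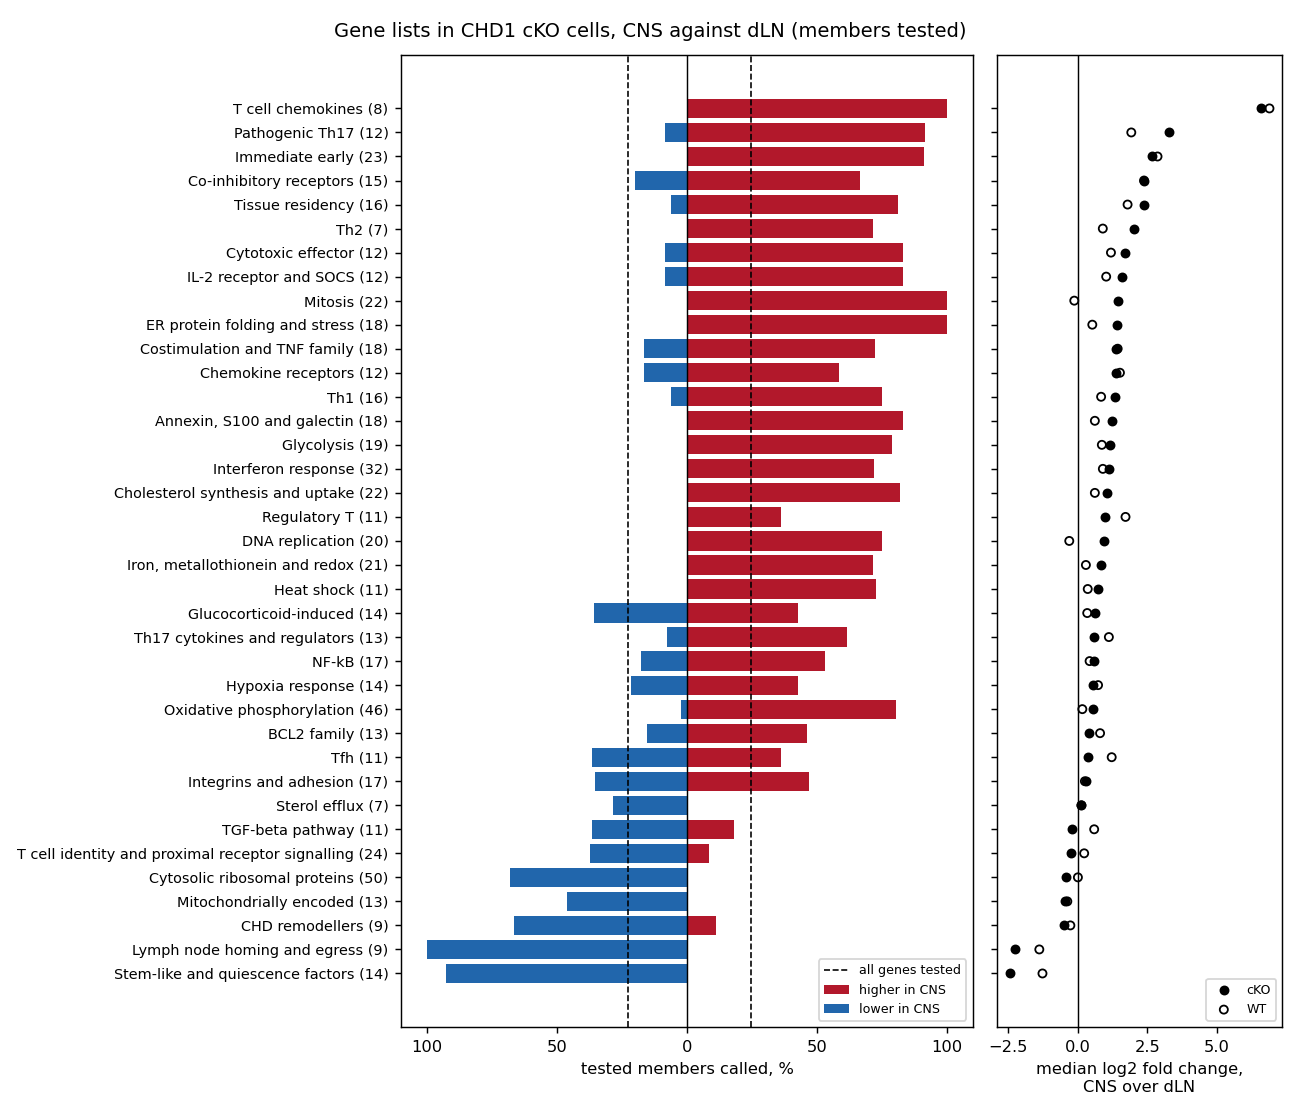
Gene lists in CHD1 cKO cells, CNS against dLN, with the number of members tested in brackets. Left, bars give the percent of members called higher (to the right) or lower (to the left) in the CNS, and dashed lines the same for all genes tested; right, the median log2 fold change of each list in cKO and WT cells. T cell chemokines, immediate early and pathogenic Th17 genes lie at the top, and lymph node homing and stem-like genes at the bottom.

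RNA of other cell types is set out first, because it moved with the organ. Of 86 myeloid genes tested, 83 were called higher in cKO CNS libraries and none lower, with a median log2 fold change of 6.19, or 5.80 with the 15 genes at 0 in one organ set at their lower bound. Their summed level was 16514, 16431, 16228 and 9960 CPM in the cKO CNS libraries, against 804, 1165, 944 and 627 CPM in the cKO dLN libraries. CNS library 4 held the least. Of the 91 genes of the list, 89 to 90 were counted in each cKO CNS library and 48 to 61 in each cKO dLN library. C1qa, a complement chain made by microglia and macrophages, stood at 695, 707, 722 and 422 CPM in cKO CNS and 0, 2.39, 0 and 1.43 CPM in cKO dLN libraries. Tmem119, a marker of microglia, stood at 106, 150.3, 95 and 73.2 CPM in the CNS and was not counted in any cKO dLN library, at least 499-fold higher against a floor of 3 counts over the 4 libraries together. Cd74, the chaperone of MHC class II, stood at 2231, 1766, 1352 and 1089 CPM in cKO CNS and 56.3, 96.9, 93.7 and 54.1 CPM in cKO dLN libraries, and all 12 tested genes of the dendritic and MHC class II list were called higher in the CNS. WT cells had the same pattern, with 82 of 86 myeloid genes called higher and summed levels of 8808 to 11801 CPM in the CNS, against 552 to 702 CPM in the dLN. How much of the rise of any other gene that myeloid cells also express comes from this RNA was not tested. Erythroid and platelet RNA summed to 324, 8.83, 4.61 and 494 CPM in the cKO CNS libraries. It summed to 4.41, 4.18, 0.842 and 2.29 CPM in the cKO dLN libraries. Of 13 B and plasma cell genes tested, 6 were called lower in the cKO CNS libraries and 1 higher.

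**Figure D2:**
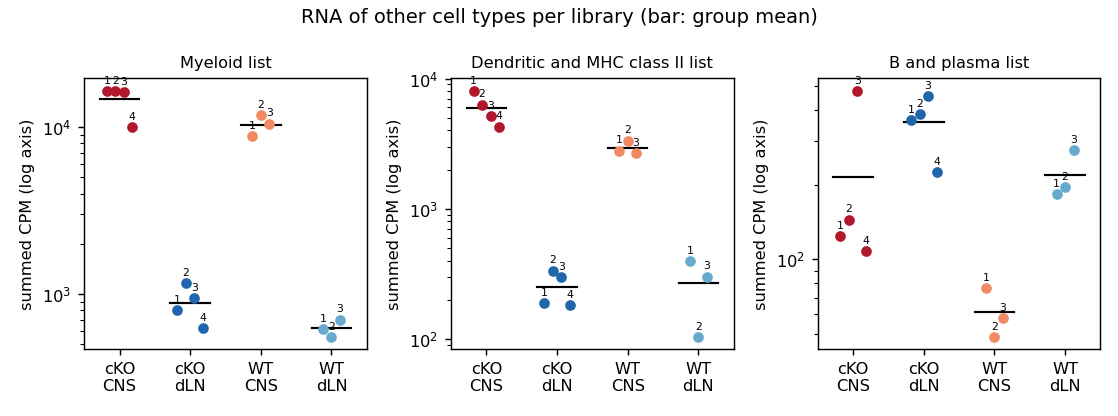
Summed CPM (log axis) of the myeloid, the dendritic and MHC class II, and the B and plasma cell lists in each library, numbered, with group means as bars, for cKO and WT cells from the CNS and the dLN. Myeloid RNA was higher in each CNS library than in any dLN library of either genotype, and 1 cKO CNS library held as much B and plasma cell RNA as the dLN libraries.

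CD8 RNA ran the other way, and among the dLN libraries it was seen at high level in cKO ones only. Cd8a and Cd8b1, the chains of the CD8 coreceptor, summed to 21.9, 18.4, 29.0 and 26.3 CPM in the cKO CNS libraries, against 256, 603, 500 and 129.7 CPM in the cKO dLN libraries, with 14.5 to 23.4 CPM in the WT dLN libraries. Cd8a alone stood at 1.29, 1.91, 0.577 and 0.2599 CPM in cKO CNS and 63.8, 161, 125 and 30.1 CPM in cKO dLN libraries (-6.55 ± 0.57, adjusted p = 6.69e-07). Its tissue difference in WT cells was -1.09 ± 1.15 (adjusted p = 0.586). For Cd8b1 the difference between genotypes in the tissue effect was itself called (-3.97 ± 0.57, adjusted p = 0.0297), a call that ended when any of 8 single libraries was left out. Cd4 stood at 213, 129, 199 and 206 CPM in cKO CNS and 176, 71.6, 113 and 177 CPM in cKO dLN libraries (0.47 ± 0.24, adjusted p = 0.122). Without CNS library 2 its adjusted p was 0.0457. Without dLN libraries 2 and 3 it differed by 0.08 (adjusted p = 0.794). dLN library 2 had the most CD8 RNA, the least Cd4 and the lowest Trbv16 share. Some results that follow this order of dLN libraries are given again without dLN libraries 2 and 3, which hold the most CD8 RNA. That alternative was chosen after the data were seen, and it keeps only 2 cKO dLN libraries, 1 and 4. They still held 256 and 129.7 CPM of CD8 RNA, above every WT dLN library, and Cd8a still differed by -5.54. A difference that remains in this alternative can therefore still hold CD8 RNA. The alternative left 2042 genes called higher and 1608 lower. In bulk samples, fewer cells of a type and less RNA per cell cannot be told apart.

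The lymph node trafficking programme was low in the CNS. All 9 genes of the homing and egress list were called lower, with a median log2 fold change of -2.28, against 22.7% of genes tested and a median of -0.02. S1pr1, the egress receptor (ENSMUSG00000045092.8, chromosome 3 from 115710433 to 115715072), stood at 6.28, 20.02, 12.1 and 9.23 CPM in cKO CNS and 120.4, 93.6, 86.4 and 71.6 CPM in cKO dLN libraries (-2.96 ± 0.27, adjusted p = 1.02e-06). The chemokine receptor Ccr7 stood at 47.3, 115, 67.2 and 40.7 CPM in cKO CNS and 259, 336, 300.3 and 196 CPM in cKO dLN libraries (-2.01 ± 0.41, adjusted p = 0.00106). For both genes the organs did not overlap, and among the cKO dLN libraries Ccr7 ranked 2, 3, 1, 4, the same order as CD8 RNA. Without dLN libraries 2 and 3 Ccr7 differed by -1.75 (adjusted p = 0.017).

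Klf2, the transcription factor that drives S1pr1, was low in all libraries and lower in the CNS, at 2.42, 4.42, 1.15 and 0.7797 CPM in cKO CNS and 11.2, 9.24, 11.8 and 10.3 CPM in cKO dLN libraries (-2.28 ± 0.39, adjusted p = 2.95e-04; -2.89 without CNS library 2). Its relative Klf3 stood at 3.06, 3.53, 2.16 and 1.82 CPM in cKO CNS and 21.8, 39.4, 18.2 and 16.6 CPM in cKO dLN libraries (-3.18 ± 0.30, adjusted p = 1.38e-06). S1pr4, another receptor for sphingosine-1-phosphate, differed less, at 43.6, 36.4, 48.4 and 51.5 CPM in cKO CNS and 103, 106, 95.97 and 90.7 CPM in cKO dLN libraries (-1.14 ± 0.12, adjusted p = 5.75e-06). Without dLN libraries 2 and 3, 7 of 9 genes were called lower, with a median of -2.12. In WT cells, whose dLN libraries held little CD8 RNA, 7 of the 9 were called lower, with a median of -1.39.

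Genes of the resting and stem-like state fell in the same way. Of 14 tested, 13 were called lower in the CNS and none higher, with a median of -2.46. Tcf7, which encodes TCF1 (ENSMUSG00000000782.15, chromosome 11 from 52252371 to 52283014), stood at 27.1, 37.7, 42.96 and 23.4 CPM in cKO CNS and 209.7, 229.9, 223 and 168 CPM in cKO dLN libraries (-2.66 ± 0.20, adjusted p = 1.64e-07). Lef1, its partner, stood at 29.3, 27.2, 20.8 and 32.5 CPM in cKO CNS and 136, 221, 169 and 113 CPM in cKO dLN libraries (-2.54 ± 0.21, adjusted p = 3.64e-07). Each dLN library was well above each CNS library for both. Id3, an inhibitor of E proteins that is high in resting and memory precursor T cells, stood at 5.47, 2.06, 5.48 and 2.21 CPM in cKO CNS and 27.2, 54.6, 40.4 and 32.9 CPM in cKO dLN libraries (-3.35 ± 0.32, adjusted p = 1.67e-06).

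Dapl1, a gene of naive and stem-like T cells, had one of the largest falls, at 0, 1.32, 1.297 and 1.95 CPM in cKO CNS and 53.97, 129, 98.5 and 27.2 CPM in cKO dLN libraries (-6.0 ± 0.58, adjusted p = 1.90e-06). It followed the CD8 order among dLN libraries and its log2 fold change was -5.08 without dLN libraries 2 and 3. Actn1, an actin crosslinker, differed by -3.33 on the log2 scale, by -3.99 without CNS library 2 and by -2.83 without dLN libraries 2 and 3. Without dLN libraries 2 and 3, 12 of the 14 genes were called lower, and Tcf7 and Lef1 differed by -2.53 and -2.18. In WT cells 9 of the 14 were called lower, with a median of -1.27.

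Further genes with large falls lay outside these lists; Rasgrp2 was chosen after its values were seen. Pik3ip1, an inhibitor of phosphoinositide 3-kinase, stood at 10.6, 13.5, 11.97 and 7.02 CPM in cKO CNS and 106, 134, 128 and 108 CPM in cKO dLN libraries (-3.46 ± 0.25, adjusted p = 1.07e-07). Rasgrp2, an activator of the integrin switch RAP1, stood at 8.53, 13.2, 13.7 and 14.3 CPM in cKO CNS and 129, 125, 127 and 102 CPM in cKO dLN libraries (-3.27 ± 0.22, adjusted p = 5.89e-08). The organs did not overlap for either gene, and without dLN libraries 2 and 3 the differences were -3.31 for Pik3ip1 and -3.21 for Rasgrp2. Dtx1, a Notch pathway gene linked to T cell anergy, differed by -4.54 ± 0.48 (-5.26 without CNS library 2, -3.92 without dLN libraries 2 and 3). Vipr1, the receptor for vasoactive intestinal peptide, differed by -3.8 ± 0.39 (-4.46 without CNS library 2, -3.7 without dLN libraries 2 and 3). Sidt1, a transmembrane protein of the SID1 family, differed by -4.28 ± 0.41 (-3.52 without dLN libraries 2 and 3). All 5 were also called lower in WT CNS cells.

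**Figure D3:**
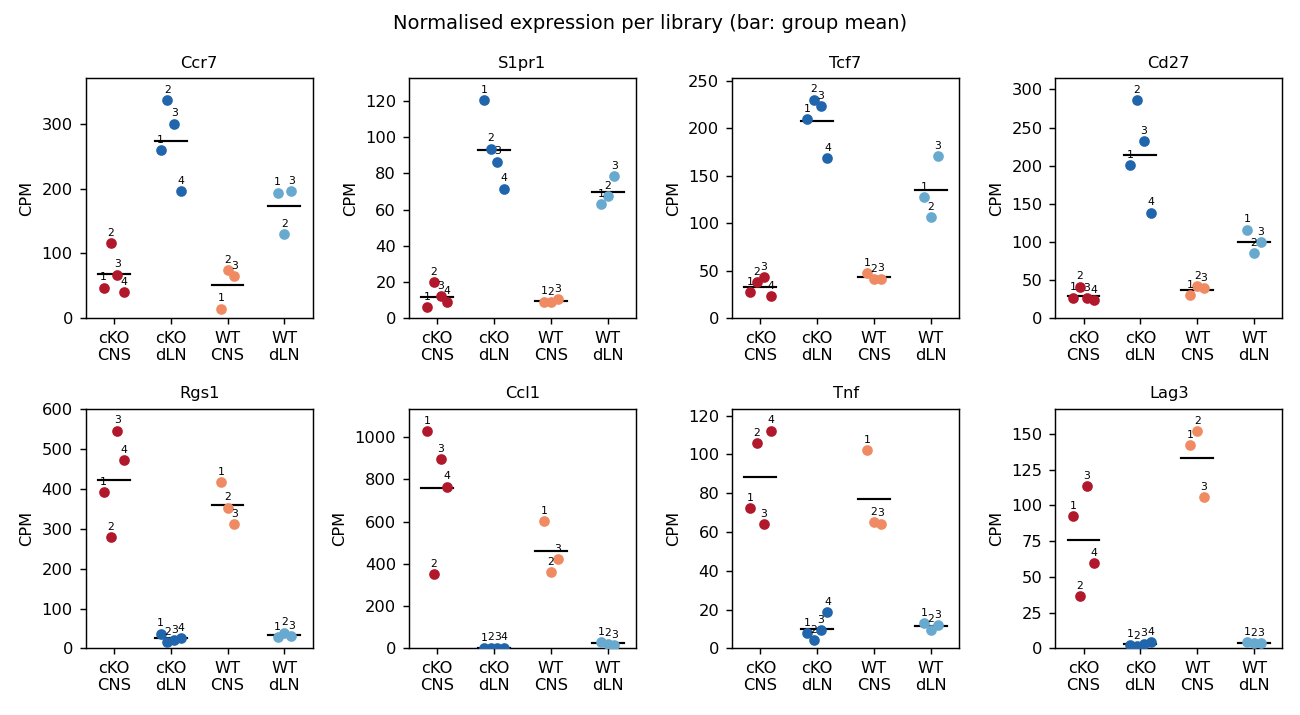
CPM per library, numbered, with group means as bars, for genes of lymph node trafficking and rest (upper row: Ccr7, S1pr1, Tcf7, Cd27) and of tissue effector cells (lower row: Rgs1, Ccl1, Tnf, Lag3) in cKO and WT cells of both organs. In cKO cells the CNS and dLN libraries do not overlap for any of the 8 genes.

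Genes of tissue residency, known from T cells that stay in non-lymphoid organs, were higher in the CNS. Of 16 tested, 13 were called higher and 1 lower, with a median of 2.39, against 24.6% of all genes tested called higher. Rgs1, which dampens chemokine and S1P receptor signals (ENSMUSG00000026358.13, chromosome 1 from 144242296 to 144249242), stood at 392, 279, 547 and 472 CPM in cKO CNS and 37.4, 16.4, 21.6 and 25.2 CPM in cKO dLN libraries (4.06 ± 0.26, adjusted p = 3.39e-08). Cxcr6, the receptor for CXCL16, stood at 279.9, 172, 351 and 356 CPM in cKO CNS and 108, 68.6, 68.2 and 93.3 CPM in cKO dLN libraries (1.78 ± 0.26, adjusted p = 8.32e-05). Cd69, which opposes S1PR1 at the cell surface, changed less, at 130.3, 148, 211 and 167 CPM in cKO CNS and 98.3, 75.2, 82.8 and 104 CPM in cKO dLN libraries (0.87 ± 0.16, adjusted p = 6.62e-04). For all 3 each CNS library lay above each dLN library.

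Bhlhe40, a transcription factor that T cells need to cause EAE, stood at 127, 137, 167 and 169 CPM in cKO CNS and 20.8, 13.1, 17.4 and 56.1 CPM in cKO dLN libraries (2.48 ± 0.32, adjusted p = 2.70e-05). dLN library 4 was the high one, and leaving it out gave a difference of 3.12, whereas leaving out dLN libraries 2 and 3 gave 1.97. P2rx7, the channel for extracellular ATP, stood at 101, 60.5, 73.96 and 101 CPM in cKO CNS and 10.6, 6.86, 8.98 and 19.8 CPM in cKO dLN libraries (2.86 ± 0.28, adjusted p = 2.03e-06). Litaf and Itga1 (the collagen-binding integrin chain CD49a) rose by 3.61 ± 0.24 and 3.04 ± 0.66. The 1 member called lower was Itgae, the integrin chain CD103, at 10.5, 0.883, 9.66 and 5.98 CPM in cKO CNS and 13.8, 39.4, 26.7 and 8.301 CPM in cKO dLN libraries (-1.7 ± 0.53, adjusted p = 0.0164). Its levels overlapped between organs and followed CD8 RNA among dLN libraries: the adjusted p was 0.0732 without dLN library 2 and 0.386 without libraries 2 and 3. In WT cells Itgae differed by 2.32 ± 0.84 (adjusted p = 0.0743).

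Among chemokine receptors, 7 of 12 were called higher and 2 lower in the CNS. Ccr8, the receptor for CCL1, stood at 142, 139.7, 205 and 171 CPM in cKO CNS and 3.63, 1.79, 8.98 and 16.6 CPM in cKO dLN libraries (4.41 ± 0.38, adjusted p = 6.10e-07). It differed by 5.08 without dLN library 4 and by 4.04 without dLN libraries 2 and 3. Cxcr4 and Ccr9 were lower in the CNS. Cxcr4, the receptor for CXCL12, stood at 2.898, 4.71, 1.15 and 0.7797 CPM in cKO CNS and 9.86, 8.35, 10.7 and 10.6 CPM in cKO dLN libraries (-2.05 ± 0.47, adjusted p = 0.00258). Ccr9, a gut homing receptor, stood at 2.09, 2.36, 4.04 and 2.34 CPM in cKO CNS and 13.5, 28.3, 20.8 and 5.73 CPM in cKO dLN libraries (-2.64 ± 0.42, adjusted p = 1.53e-04). Ccr9 followed CD8 RNA in the dLN and differed by -1.82 (adjusted p = 0.00745) without dLN libraries 2 and 3. Neither was called in WT cells.

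Integrins and adhesion genes went both ways, 8 of 17 higher and 6 lower. Itga4, the alpha-4 chain that carries T cells across the blood-brain barrier, was lower in the CNS, at 36.2, 41.7, 34.02 and 29.4 CPM in cKO CNS and 155, 81.7, 91.5 and 141 CPM in cKO dLN libraries (-1.73 ± 0.20, adjusted p = 1.23e-05). Its partner Itgb7 was also lower, at 144, 153, 229 and 216 CPM in cKO CNS and 416, 296, 372 and 392 CPM in cKO dLN libraries (-0.99 ± 0.16, adjusted p = 1.65e-04). Both chains of LFA-1 were higher: Itgb2 stood at 386, 241, 364 and 392 CPM in cKO CNS and 179, 176, 175 and 182 CPM in cKO dLN libraries (0.96 ± 0.14, adjusted p = 6.82e-05) and Itgal at 186, 121, 133 and 189.6 CPM in cKO CNS and 93.2, 92.4, 92.3 and 93.3 CPM in cKO dLN libraries (0.76 ± 0.15, adjusted p = 9.90e-04). All 4 genes were called in the same direction in WT cells.

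Il17f, a signature Th17 cytokine, was scarce in cKO cells. It stood at 0, 1.18, 0.288 and 0.3899 CPM in cKO CNS and 2.08, 0.596, 0.561 and 1.15 CPM in cKO dLN libraries (-1.2 ± 0.92, adjusted p = 0.3), and the groups overlapped; without CNS library 2 the log2 fold change was -2.12. WT cells averaged 7.03 ± 7.62 CPM in the CNS and 0.279 ± 0.275 CPM in the dLN (SD, n = 3 each; 4.48 ± 1.09, adjusted p = 0.0108), and the genotype difference in tissue effect was not called (adjusted p = 0.0932). Of 13 Th17 genes tested, 8 were called higher and 1 lower, and 3 higher without dLN libraries 2 and 3, where the median was 0.48, against 0.59 with them.

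The higher ones included Il21, a cytokine of Th17 and follicular helper cells, at 4.03, 29.4, 14.8 and 11.3 CPM in cKO CNS and 0.259, 0.596, 1.68 and 0.573 CPM in cKO dLN libraries (4.23 ± 0.66, adjusted p = 1.49e-04; 4.92 without dLN library 3). Maf, a regulator of Il21, stood at 9.82, 5.45, 14.8 and 7.28 CPM in cKO CNS and 1.04, 1.49, 1.68 and 4.29 CPM in cKO dLN libraries (2.13 ± 0.39, adjusted p = 5.10e-04; 2.72 without dLN library 4, 1.83 without dLN libraries 2 and 3). The 1 called lower was Il6ra, a chain of the IL-6 receptor, at 7.41, 11.8, 9.37 and 4.55 CPM in cKO CNS and 24.4, 27.4, 28.6 and 18.3 CPM in cKO dLN libraries (-1.58 ± 0.25, adjusted p = 1.45e-04).

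Th1 genes were higher in the CNS, 12 of 16 tested, with 1 lower and a median of 1.34. Ifng, the Th1 cytokine interferon-gamma (ENSMUSG00000055170.4, chromosome 10 from 118441046 to 118445892), stood at 55.2, 183, 34.2 and 114 CPM in cKO CNS and 0.259, 0, 0.281 and 0.859 CPM in cKO dLN libraries (8.01 ± 0.71, adjusted p = 8.10e-07; 8.85 without dLN library 4, 7.41 without dLN libraries 2 and 3). It was nearly absent from dLN cells, and CNS library 2 was the highest. Tbx21, which encodes the Th1 regulator T-bet, stood at 68.1, 47.99, 57.1 and 86.5 CPM in cKO CNS and 8.04, 15.2, 12.6 and 26.3 CPM in cKO dLN libraries (2.07 ± 0.27, adjusted p = 3.47e-05). In WT cells Ifng averaged 21.7 ± 1.44 CPM in the CNS and 1.03 ± 0.844 CPM in the dLN (SD, n = 3 each), and Tbx21 differed by 0.87 ± 0.30 (adjusted p = 0.0613). Neither genotype difference in the tissue effect was called, at adjusted p = 0.229 for Ifng and 0.14 for Tbx21.

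Th2 cytokines were counted in every cKO CNS library as well. Il4 stood at 3.06, 7.95, 7.06 and 9.88 CPM in the cKO CNS libraries and at 0 in all 4 cKO dLN libraries, at least 34.1-fold higher against a floor of 3 counts over the 4 libraries. Il5 stood at 5.15, 17.1, 6.49 and 6.11 CPM in cKO CNS and 0, 0, 0 and 0.286 CPM in cKO dLN libraries (6.52 ± 0.76, adjusted p = 2.56e-05; 8.5 without dLN library 4, 5.77 without dLN libraries 2 and 3). Il13 stood at 3.86, 46.2, 6.92 and 14.4 CPM in cKO CNS and 0, 0, 1.12 and 0 CPM in cKO dLN libraries (5.87 ± 1.04, adjusted p = 3.92e-04), and differed by 4.79 without CNS library 2 and by 9.54 without dLN library 3. CNS library 2 was the highest for Il5 and Il13. Foxp3, the regulator of regulatory T cells, was low in both organs, at 6.602, 4.42, 3.32 and 3.899 CPM in cKO CNS and 4.41, 6.26, 3.93 and 1.72 CPM in cKO dLN libraries (0.16 ± 0.38, adjusted p = 0.761), and its sign turned without CNS library 1 (-0.07) or dLN library 4 (-0.1).

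Of 12 pathogenic Th17 genes tested, 11 were called higher in the CNS and 1 lower, with a median of 3.29. Without dLN libraries 2 and 3, 9 were called higher and none lower. In WT cells 7 were called higher and none lower, with a median of 1.93. Chemokines made by T cells rose in 8 of 8 cases tested in cKO cells, with a median of 6.61. Ccl1, the ligand of CCR8, was the most abundant of them, at 1029.6, 353, 897 and 766 CPM in cKO CNS and 3.11, 4.18, 3.93 and 4.29 CPM in cKO dLN libraries (7.61 ± 0.38, adjusted p = 3.71e-09). Its rise was larger in cKO than in WT cells, where the difference was 4.3 ± 0.36, with an interaction of 3.32 ± 0.49, adjusted p = 0.0303; leaving out any of 8 single libraries ended that call. Ccl3, a ligand of CCR1, stood at 55.2, 60.9, 32.4 and 54.1 CPM in the CNS and 0 in every cKO dLN library, at least 241-fold higher against the same floor of 3 counts over the group. Ccl4 stood at 146, 147, 82.03 and 122 CPM in cKO CNS and 0.519, 3.88, 0.561 and 0 CPM in cKO dLN libraries (6.67 ± 0.47, adjusted p = 9.34e-08; 8.31 without dLN library 2). Ccl3 and Ccl4 are also products of microglia and macrophages, whose RNA moved with the organ, and the part of that RNA in these values was not tested.

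Cxcl16, the membrane-bound ligand of CXCR6, which myeloid cells also make, stood at 94.2, 68.2, 65.9 and 46 CPM in cKO CNS and 0, 0.895, 0.281 and 1.72 CPM in cKO dLN libraries (6.56 ± 0.47, adjusted p = 9.95e-08; 7.43 without dLN library 4, 6.34 without dLN libraries 2 and 3). The abundant Ccl5 overlapped between organs, at 475, 182, 709 and 389 CPM in cKO CNS and 99.4, 301, 187 and 90.5 CPM in cKO dLN libraries (1.37 ± 0.45, adjusted p = 0.0221). Its adjusted p was 0.0809 without CNS library 3, 0.0665 without dLN library 1 and 0.0588 without dLN library 4. dLN library 2, with the most CD8 RNA, was the highest of the dLN libraries in Ccl5. Without dLN libraries 2 and 3 Ccl5 differed by 2.205 (adjusted p = 0.00886).

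Cytotoxic genes were mostly higher in the CNS, with perforin lower. Of 12 tested, 10 were called higher in the CNS and 1 lower, and 6 higher without CNS library 4. Gzmb, granzyme B, stood at 18.03, 91.9, 29.6 and 52.9 CPM in cKO CNS and 6.49, 2.39, 2.81 and 7.16 CPM in cKO dLN libraries (3.34 ± 0.53, adjusted p = 1.55e-04). The 1 called lower was Prf1, the pore former perforin, at 1.29, 2.36, 0.288 and 0.9097 CPM in cKO CNS and 14.01, 34.9, 23.9 and 5.73 CPM in cKO dLN libraries (-4.0 ± 0.59, adjusted p = 8.72e-05). Perforin followed CD8 RNA among the dLN libraries and differed by -3.02 without libraries 2 and 3. In WT cells, whose dLN libraries held little CD8 RNA, Prf1 was at 0.525 ± 0.6502 CPM in the CNS and 0.483 ± 0.139 CPM in the dLN (SD, n = 3 each).

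Immediate early genes, the first that a receptor signal switches on, were higher in the CNS. Of 23 tested, 21 were called higher and none lower, with a median of 2.66. Fos and Jun encode the chains of the factor AP-1. Fos stood at 196, 188, 145 and 107 CPM in cKO CNS and 1.56, 1.19, 2.24 and 3.72 CPM in cKO dLN libraries (6.17 ± 0.35, adjusted p = 1.36e-08). Jun stood at 75.4, 98.5, 84.2 and 70.4 CPM in cKO CNS and 0.519, 0.596, 0.842 and 0 CPM in cKO dLN libraries (7.32 ± 0.29, adjusted p = 6.31e-10). The dLN libraries were at or below a few CPM for both. Dusp1, a phosphatase that ends MAP kinase signals, stood at 326, 296, 323 and 208 CPM in cKO CNS and 4.41, 7.46, 5.05 and 7.73 CPM in cKO dLN libraries (5.55 ± 0.24, adjusted p = 1.48e-09). Nr4a1, a direct read of T cell receptor signalling, stood at 76.2, 144, 91.7 and 82.5 CPM in cKO CNS and 11.9, 8.35, 10.9 and 7.73 CPM in cKO dLN libraries (3.33 ± 0.24, adjusted p = 1.03e-07).

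WT cells had the same rise, 19 of 23 called higher with a median of 2.87. Heat shock genes rose too, 8 of 11 with none lower. Hspa1a, the inducible HSP70, stood at 212, 197, 261 and 268 CPM in cKO CNS and 2.59, 0, 0.842 and 0 CPM in cKO dLN libraries (7.98 ± 0.44, adjusted p = 7.99e-09; 9.55 without dLN library 1, 7.41 without dLN libraries 2 and 3). Hspa8, its constitutive relative, stood at 2187, 2595, 2319.8 and 2379.8 CPM in cKO CNS and 1525, 1341, 1466 and 1336 CPM in cKO dLN libraries (0.74 ± 0.10, adjusted p = 2.97e-05). Warm enzymatic digestion was used for the CNS only, so the preparation and the organ cannot be told apart for either group of genes.

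Members of the TNF family and costimulatory receptors were mostly higher in the CNS, 13 of 18 tested, with 3 lower. Tnf stood at 72.1, 106, 63.9 and 112 CPM in cKO CNS and 7.78, 4.47, 9.54 and 18.9 CPM in cKO dLN libraries (3.12 ± 0.33, adjusted p = 4.22e-06). Lta, lymphotoxin alpha, stood at 89.4, 85.2, 52.6 and 80.05 CPM in cKO CNS and 6.75, 7.75, 10.4 and 6.298 CPM in cKO dLN libraries (3.3 ± 0.23, adjusted p = 9.94e-08). Tnfrsf9, the costimulatory receptor 4-1BB, stood at 50.6, 104, 39.2 and 44.1 CPM in cKO CNS and 4.41, 10.4, 7.02 and 5.44 CPM in cKO dLN libraries (3.13 ± 0.36, adjusted p = 8.90e-06). No dLN library reached a CNS library for these 3. Cd27, a costimulatory receptor of naive and central memory cells, ran the other way, at 26.9, 41.5, 25.9 and 23.3 CPM in cKO CNS and 200.3, 286, 232 and 139 CPM in cKO dLN libraries (-2.86 ± 0.23, adjusted p = 3.45e-07), and differed by -2.53 without dLN libraries 2 and 3.

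In the IL-2 pathway 10 of 12 genes were called higher and 1 lower. Il2ra, the alpha chain of the IL-2 receptor, stood at 53.8, 118, 65.2 and 73.7 CPM in cKO CNS and 16.9, 9.84, 17.4 and 24.3 CPM in cKO dLN libraries (2.18 ± 0.28, adjusted p = 2.82e-05). Il2 itself was variable, at 6.28, 48.3, 2.16 and 31.7 CPM in cKO CNS and 0.259, 0, 3.65 and 0.859 CPM in cKO dLN libraries (4.19 ± 1.00, adjusted p = 0.00347), and differed by 3.47 without CNS library 2 and 5.8 without dLN library 3. Socs2 and Socs3, feedback inhibitors of cytokine receptors, rose by 2.36 ± 0.25 and 2.24 ± 0.33.

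Checkpoint receptors rose along with them. Of 15 tested, 10 were called higher and 3 lower, with a median of 2.40 in cKO and 2.38 in WT cells. Pdcd1, which encodes PD-1, stood at 91.3, 37.98, 116 and 73.9 CPM in cKO CNS and 1.82, 8.95, 3.09 and 12.02 CPM in cKO dLN libraries (3.64 ± 0.42, adjusted p = 1.07e-05). Lag3, which binds MHC class II, stood at 92.4, 36.7, 114 and 59.4 CPM in cKO CNS and 2.59, 1.79, 3.37 and 4.58 CPM in cKO dLN libraries (4.6 ± 0.37, adjusted p = 3.30e-07). CNS library 2 was the lowest of the CNS libraries for both, and was still above every dLN library. Havcr2, which encodes TIM-3 and is also expressed by microglia, stood at 29.3, 28.6, 33.4 and 28.98 CPM in cKO CNS and 0.519, 0.596, 0.281 and 2.29 CPM in cKO dLN libraries (5.0 ± 0.37, adjusted p = 1.62e-07; 5.94 without dLN library 4, 4.43 without dLN libraries 2 and 3).

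Ctla4 stood at 42.2, 34.01, 62.9 and 38.1 CPM in cKO CNS and 6.75, 6.26, 4.49 and 8.87 CPM in cKO dLN libraries (2.74 ± 0.24, adjusted p = 8.10e-07). Entpd1, the ectonucleotidase CD39, stood at 99.4, 127, 97.02 and 95.1 CPM in cKO CNS and 4.67, 5.07, 7.296 and 10.9 CPM in cKO dLN libraries (3.9 ± 0.20, adjusted p = 4.97e-09). Both genes were several times higher in each CNS library than in any dLN library. Among those called lower, Btla, an inhibitory receptor of resting cells, stood at 11.6, 10.5, 9.803 and 8.71 CPM in cKO CNS and 28.3, 21.8, 26.1 and 28.1 CPM in cKO dLN libraries (-1.36 ± 0.14, adjusted p = 4.63e-06). Tox, the chromatin factor of exhausted T cells, was also lower in the CNS, at 3.86, 0.736, 2.16 and 1.69 CPM in cKO CNS and 6.75, 20.3, 17.1 and 9.16 CPM in cKO dLN libraries (-2.65 ± 0.44, adjusted p = 2.47e-04). It was highest in the dLN libraries with the most CD8 RNA, and differed by -1.91 (adjusted p = 0.0113) without them.

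Cell cycle genes were higher in the CNS in cKO cells. All 22 mitosis genes and 15 of 20 DNA replication genes were called higher, with none lower and medians of 1.44 and 0.94. Summed over the list, mitosis RNA was 963, 771, 936 and 1406 CPM in the cKO CNS libraries, against 190.5, 298, 226 and 709 CPM in the cKO dLN libraries. dLN library 4, with the least CD8 RNA, lay far above the other 3 and just under the lowest CNS library. In WT cells none of these genes was called in either direction, and summed mitosis RNA was 730.1 to 944 CPM in the CNS, against 718 to 1149 CPM in the dLN. cKO dLN libraries 1, 2 and 3 were lower than every other library of the 14. Without dLN libraries 2 and 3, 9 mitosis and 6 DNA replication genes were called higher, with medians of 1.12 and 0.76.

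Cdk1, the kinase that starts mitosis, stood at 107, 109.8, 99.3 and 131 CPM in cKO CNS and 17.6, 29.5, 18.5 and 62.98 CPM in cKO dLN libraries (1.8 ± 0.32, adjusted p = 3.62e-04). Ube2c and Nusap1, which act in anaphase and on the spindle, rose by 1.99 ± 0.33 and 1.92 ± 0.29. Tyms, which makes thymidylate for DNA synthesis, stood at 97.4, 95.4, 135 and 153 CPM in cKO CNS and 23.9, 24.2, 27.2 and 68.4 CPM in cKO dLN libraries (1.74 ± 0.30, adjusted p = 3.38e-04). Cdc45, a part of the replicative helicase, stood at 39.9, 33.7, 34.3 and 44.1 CPM in cKO CNS and 6.23, 10.4, 9.54 and 24.3 CPM in cKO dLN libraries (1.59 ± 0.32, adjusted p = 0.001). The genotype difference in the tissue effect was not called for these genes, with an adjusted p of 0.0932 for both Cdk1 and Tyms.

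**Figure D4:**
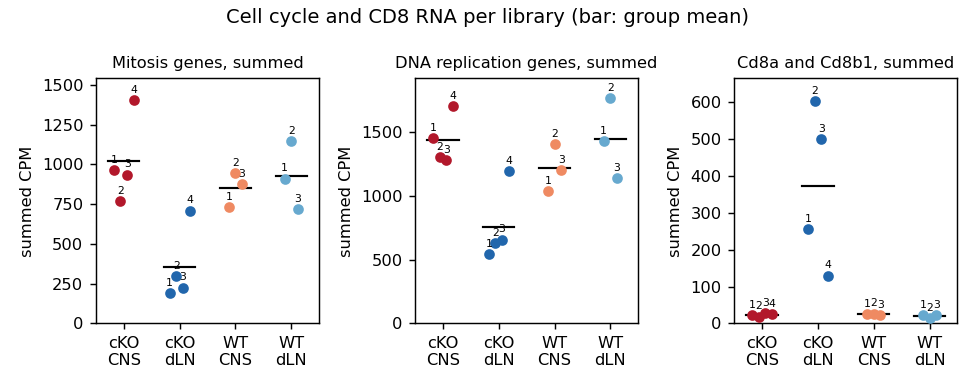
Summed CPM of 22 mitosis genes, 20 DNA replication genes and the pair Cd8a and Cd8b1 in each library, numbered, with group means as bars, in cKO and WT cells of both organs. cKO dLN libraries 1, 2 and 3 lie below all others in mitosis and DNA replication RNA, and all 4 cKO dLN libraries lie above all others in CD8 RNA.

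Energy metabolism shifted in several steps. Of 19 glycolysis genes 15 were called higher in the CNS and none lower, with a median of 1.15; 15 were also called higher in WT cells. Slc16a3, the lactate exporter, stood at 41.2, 56.5, 32.1 and 45.4 CPM in cKO CNS and 3.63, 8.05, 3.09 and 4.01 CPM in cKO dLN libraries (3.23 ± 0.32, adjusted p = 2.60e-06). Hk2, the inducible hexokinase, stood at 22.5, 41.2, 18.3 and 16.9 CPM in cKO CNS and 3.63, 2.39, 1.96 and 5.15 CPM in cKO dLN libraries (2.9 ± 0.37, adjusted p = 2.28e-05). Tpi1, triosephosphate isomerase, stood at 448, 459, 466 and 536 CPM in cKO CNS and 73.2, 71.3, 83.6 and 132 CPM in cKO dLN libraries (2.41 ± 0.20, adjusted p = 4.88e-07). For all 3 the lowest CNS library lay above the highest dLN library. Gapdh, often taken as a constant, stood at 3088, 3249, 2420.2 and 3812 CPM in cKO CNS and 1009, 976, 1132 and 1528 CPM in cKO dLN libraries (1.44 ± 0.17, adjusted p = 1.18e-05).

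Ldha, which turns pyruvate into lactate, rose by 1.15 ± 0.15, and Pgk1, phosphoglycerate kinase, by 1.61 ± 0.14. Nuclear genes of oxidative phosphorylation rose by smaller amounts, 37 of 46 called higher and 1 lower with a median of 0.54, and 24 higher with a median of 0.49 without dLN libraries 2 and 3. In WT cells 4 of the 46 were called higher and 1 lower, with a median of 0.16. No member of this list had a called genotype difference in the tissue effect. Of 13 mitochondrially encoded genes 6 were called lower and none higher, with a median of -0.48. Cytosolic ribosomal protein genes were lower, 34 of 50 with none higher and a median of -0.42, and 22 lower with a median of -0.36 without dLN libraries 2 and 3. In WT cells none of the 50 was called in either direction and the median was 0.00. The genotype difference in the tissue effect was called for 1 of the 50, Rpl23.

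Sterol genes rose, 18 of 22 in the list of cholesterol synthesis and uptake with none lower and a median of 1.04, against 7 of 22 in WT cells with a median of 0.61. Fdps, which makes farnesyl pyrophosphate, stood at 119, 134, 81.6 and 152 CPM in cKO CNS and 27.8, 26.8, 39.6 and 30.1 CPM in cKO dLN libraries (1.97 ± 0.18, adjusted p = 1.24e-06). Sqle, squalene epoxidase, stood at 25.3, 25.2, 17.2 and 29.1 CPM in cKO CNS and 7.52, 6.86, 7.86 and 8.87 CPM in cKO dLN libraries (1.63 ± 0.20, adjusted p = 1.43e-05). Of 7 sterol efflux genes tested 2 were called lower, none higher and 5 not called, with a median of 0.11. Over all genes tested 22.7% were called lower, so the list as a whole did not stand apart. The 2 called lower were Abcg1 and Mylip. Abcg1, a sterol exporter, stood at 13.4, 12.8, 21.6 and 12.1 CPM in cKO CNS and 23.9, 29.2, 28.3 and 22.04 CPM in cKO dLN libraries (-0.79 ± 0.19, adjusted p = 0.00393; adjusted p = 0.0661 without dLN libraries 2 and 3). Mylip, which degrades the LDL receptor, stood at 11.1, 8.097, 7.21 and 9.36 CPM in cKO CNS and 18.4, 22.4, 27.2 and 16.3 CPM in cKO dLN libraries (-1.24 ± 0.23, adjusted p = 5.38e-04).

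All 18 genes of protein folding and stress in the endoplasmic reticulum were called higher in cKO CNS cells, with a median of 1.42, against 9 of 18 in WT cells with a median of 0.52. The element that ATF6 and other factors bind in promoters of such genes was searched for as CCAAT, 9 bases of any kind and CCACG. Both strands of RefSeq promoters were read (GRCm38.p6, 250 bases before to 50 after the gene start). It was found in 6 of the 17 list members with a promoter in the table (35.3%), which were Hspa5, Pdia6, Calr, Canx, Hsp90b1 and Creld2, and in 37 of 27025 symbols in all (0.137%). A match is a description of the letters and not a proven site. Bases 200 to 41 before the start of 3 of them are shown, 5′ to 3′ on the gene's own strand, with the match in capitals, because these genes rose together. In Creld2 the match lies on the opposite strand.
Hspa5 promoter, chr2:34771890-34772049, plus strand: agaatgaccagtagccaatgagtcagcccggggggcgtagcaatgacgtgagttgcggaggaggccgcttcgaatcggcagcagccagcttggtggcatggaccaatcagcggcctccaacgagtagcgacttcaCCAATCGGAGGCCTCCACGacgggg
Creld2 promoter, chr15:88819446-88819605, plus strand: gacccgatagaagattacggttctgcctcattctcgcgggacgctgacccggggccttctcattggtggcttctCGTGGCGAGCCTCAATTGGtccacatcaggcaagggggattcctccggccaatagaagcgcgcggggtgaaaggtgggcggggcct
Pdia6 promoter, chr12:17266389-17266548, plus strand: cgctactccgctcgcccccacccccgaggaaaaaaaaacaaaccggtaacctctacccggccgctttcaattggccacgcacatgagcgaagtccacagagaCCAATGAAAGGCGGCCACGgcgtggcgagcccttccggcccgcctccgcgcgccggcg
The match begins 65 bases before the start of Hspa5, 126 before that of Creld2 and 98 before that of Pdia6.

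Hspa5, the chaperone BiP, stood at 358, 549.8, 367 and 445 CPM in cKO CNS and 145, 122, 145 and 197 CPM in cKO dLN libraries (1.5 ± 0.16, adjusted p = 6.01e-06). Creld2, a secreted stress gene, stood at 85.8, 125, 71.9 and 83.8 CPM in cKO CNS and 31.9, 26.2, 35.6 and 43.2 CPM in cKO dLN libraries (1.42 ± 0.19, adjusted p = 3.81e-05). Pdia6, a disulfide isomerase, stood at 118, 149.9, 124 and 142 CPM in cKO CNS and 45.9, 35.8, 51.9 and 64.4 CPM in cKO dLN libraries (1.43 ± 0.17, adjusted p = 1.68e-05). Each CNS library was above each dLN library for all 3, and none was called in WT cells. Sdf2l1, a cofactor of BiP, stood at 107, 134, 83.8 and 119.6 CPM in cKO CNS and 25.9, 32.5, 28.3 and 51.2 CPM in cKO dLN libraries (1.69 ± 0.21, adjusted p = 2.42e-05).

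In WT cells Sdf2l1 averaged 56.1 ± 10.3 CPM in the CNS and 68.5 ± 10.9 CPM in the dLN (SD, n = 3 each), and the genotype difference in the tissue effect was called (1.98 ± 0.32, adjusted p = 0.0386). It was the only member of the list with such a call, which leaving out any of 8 single libraries ended. Asns, Xbp1, Trib3 and Chac1 were called higher in the CNS in both genotypes. Asns, asparagine synthetase, stood at 53.9, 54.2, 49.6 and 65.4 CPM in cKO CNS and 9.601, 7.46, 7.02 and 18.9 CPM in cKO dLN libraries (2.37 ± 0.27, adjusted p = 9.42e-06), and differed by 1.83 ± 0.30 in WT cells. Xbp1, a transcription factor of this response, differed by 1.8 ± 0.15 in cKO and 1.36 ± 0.18 in WT cells. Trib3 and Chac1, both ATF4 targets, differed by 2.4 ± 0.42 and 3.78 ± 0.63 in cKO cells (Chac1 by 4.57 without dLN library 1 and by 3.18 without dLN libraries 2 and 3), and by 2.91 ± 0.48 and 4.27 ± 0.70 in WT cells.

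Interferon response genes rose in 23 of 32 cases with none lower, a median of 1.14, and in 11 of 32 in WT cells. The interferon-stimulated response element was searched for as TTTC, 2 bases of any kind and TTTC, on both strands of the same promoters. It was found in 13 of the 24 members with a promoter (54.2%) and in 1079 of 27025 symbols (3.99%). The stretch from 200 to 41 bases before the start is shown for 3 members called higher, with all matches in capitals. In Isg15 and Bst2 matches overlap one another and lie on the opposite strand, so that TTTC reads as GAAA.
Isg15 promoter, chr4:156200859-156201018, minus strand: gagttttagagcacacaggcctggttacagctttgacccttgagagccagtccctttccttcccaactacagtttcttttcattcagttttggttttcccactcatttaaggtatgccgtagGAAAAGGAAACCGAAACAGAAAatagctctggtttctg
Bst2 promoter, chr8:71537513-71537672, minus strand: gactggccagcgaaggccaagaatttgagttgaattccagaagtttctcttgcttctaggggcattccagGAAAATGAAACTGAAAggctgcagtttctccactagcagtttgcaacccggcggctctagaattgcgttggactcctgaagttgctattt
Gbp2 promoter, chr3:142620463-142620622, plus strand: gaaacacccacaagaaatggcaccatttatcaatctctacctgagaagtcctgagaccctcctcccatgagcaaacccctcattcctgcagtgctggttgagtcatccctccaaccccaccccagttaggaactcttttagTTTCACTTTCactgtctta
The match nearest the start begins 66 bases before it in Isg15, 124 in Bst2 and 59 in Gbp2.

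Isg15, a ubiquitin-like modifier, stood at 41.9, 128, 47.3 and 66.3 CPM in cKO CNS and 39.96, 15.8, 20.5 and 11.5 CPM in cKO dLN libraries (1.68 ± 0.38, adjusted p = 0.00234). Bst2, which tethers virions, stood at 246, 368, 205 and 241 CPM in cKO CNS and 112, 86.2, 92.3 and 67.6 CPM in cKO dLN libraries (1.56 ± 0.18, adjusted p = 9.29e-06). Gbp2, a guanylate-binding protein induced by interferon-gamma, stood at 133, 357, 95.9 and 131 CPM in cKO CNS and 64.9, 40.3, 53.3 and 26.9 CPM in cKO dLN libraries (1.95 ± 0.36, adjusted p = 5.02e-04). CNS library 2 was the highest in all 3, as it was in Ifng. Isg20, an exonuclease, stood at 128, 99.4, 156 and 192 CPM in cKO CNS and 37.9, 17.9, 31.4 and 28.1 CPM in cKO dLN libraries (2.32 ± 0.23, adjusted p = 2.65e-06).

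Oas1a, an enzyme that senses double-stranded RNA, stood at 36.6, 48.6, 36.5 and 36.9 CPM in cKO CNS and 11.7, 6.86, 10.9 and 7.73 CPM in cKO dLN libraries (2.08 ± 0.18, adjusted p = 6.98e-07). Iigp1, an interferon-inducible GTPase, stood at 21.7, 54.5, 14.1 and 20.4 CPM in cKO CNS and 9.34, 5.67, 3.37 and 3.72 CPM in cKO dLN libraries (2.31 ± 0.40, adjusted p = 3.26e-04). Microglia and macrophages also express interferon response genes. The part of myeloid RNA in these values was not tested.

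Genes known to answer glucocorticoids, a theme of the study, went both ways, with 6 of 14 called higher and 5 lower. Tsc22d3, which encodes GILZ, was lower in the CNS, at 88.4, 118, 129 and 82.3 CPM in cKO CNS and 251, 309, 241 and 166 CPM in cKO dLN libraries (-1.21 ± 0.23, adjusted p = 6.19e-04). Ddit4, an inhibitor of mTORC1, was also lower, at 17.4, 15.6, 19.8 and 20.3 CPM in cKO CNS and 51.1, 50.1, 53.04 and 53.2 CPM in cKO dLN libraries (-1.5 ± 0.17, adjusted p = 7.17e-06). Mt1, a metallothionein, was higher, at 108, 87.9, 124 and 148 CPM in cKO CNS and 12.2, 7.16, 18.2 and 56.96 CPM in cKO dLN libraries (2.31 ± 0.46, adjusted p = 9.83e-04; 3.21 without dLN library 4, 1.76 without dLN libraries 2 and 3). Dusp1, which is an immediate early gene as well, was among those called higher. None of Tsc22d3, Ddit4 and Mt1 was called in WT cells, and no gene of the list had a called genotype difference in the tissue effect.

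Annexins, S100 proteins and galectins, which mark activated and memory T cells, rose in 15 of 18 cases with none lower. S100a4 stood at 567, 180.2, 571 and 521 CPM in cKO CNS and 75.5, 24.5, 73.8 and 157 CPM in cKO dLN libraries (2.47 ± 0.45, adjusted p = 4.53e-04). S100a6 stood at 907, 493, 1014 and 1040.1 CPM in cKO CNS and 407, 158, 318 and 451 CPM in cKO dLN libraries (1.37 ± 0.27, adjusted p = 9.83e-04). Lgals1, galectin-1, stood at 1042, 797, 1338 and 1522 CPM in cKO CNS and 272, 205, 363 and 637 CPM in cKO dLN libraries (1.67 ± 0.28, adjusted p = 2.48e-04). CNS library 2 was the lowest CNS library for each. These genes are also strongly expressed by myeloid cells, whose summed RNA in CNS library 2 was close to that of libraries 1 and 3. The part of that RNA in these values was not tested.

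Among the other CHD remodellers, 6 of the 9 tested, Chd1 included, were called lower in the CNS and 1 higher. Chd3, a core part of the NuRD complex, stood at 18.4, 20.9, 11.97 and 17.2 CPM in cKO CNS and 51.9, 62.6, 57.2 and 34.6 CPM in cKO dLN libraries (-1.59 ± 0.19, adjusted p = 1.21e-05). Chd9 was the 1 called higher, at 162, 105, 148 and 121 CPM in cKO CNS and 59.7, 77.2, 71.8 and 61.8 CPM in cKO dLN libraries (0.98 ± 0.15, adjusted p = 1.11e-04). Chd1 was not among those called. In WT cells 1 of the 9 was called higher and none lower, with a median of -0.27, against -0.48 in cKO cells. No CHD gene had a called genotype difference in the tissue effect.

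Outside the lists, 3 genes with at least 10 CPM in the dLN, chosen after their values were seen, are given as examples of large rises. Cd81, a tetraspanin, stood at 386, 389, 387 and 213 CPM in cKO CNS and 13.5, 15.5, 17.4 and 16.03 CPM in cKO dLN libraries (4.46 ± 0.20, adjusted p = 1.76e-09). Ctsz, a lysosomal protease, stood at 478, 531, 511 and 348 CPM in cKO CNS and 39.4, 36.98, 37.3 and 40.6 CPM in cKO dLN libraries (3.6 ± 0.14, adjusted p = 6.31e-10). Grn, progranulin, stood at 355, 369, 243 and 243 CPM in cKO CNS and 17.1, 12.8, 18.8 and 24.6 CPM in cKO dLN libraries (4.04 ± 0.20, adjusted p = 3.71e-09). All 3 are known to be abundant in microglia and were lowest, or level with the lowest, in CNS library 4, which held the least myeloid RNA; the part of that RNA in these values was not tested. By the rule of size, the 15 largest rises were in Ccl24, Ccl3, Slco2b1, Mgl2, Hcar2, Syngr1, Gpr84, Acod1, C3ar1, Ifi207, Apoc2, Slc2a5, Tff1, Apod and Mertk. Mgl2, C3ar1, Acod1 and Mertk are known from macrophages, and Slc2a5, Gpr84 and C3ar1 from microglia. Ccl24, a ligand of CCR3 made by macrophages, stood at 126, 469, 136 and 145 CPM in the CNS and 0 in every cKO dLN library (at least 1038-fold higher). Slco2b1, an organic anion transporter, stood at 28.5, 45.5, 30.9 and 22.5 CPM in the CNS and 0 in every cKO dLN library (at least 150.2-fold higher, with a floor of 3 counts over the 4 libraries for both).

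Set beside WT cells, most of the cKO tissue difference had the same sign. Of the 5480 genes called in cKO cells 4742 had a WT fold change of the same sign, and across genes, which are not independent replicates, the 2 sets of fold changes had a Pearson r of 0.77. The genes called higher in both made up 42.9% of the cKO and 89.5% of the WT calls, and those called lower in both 17.9% and 82.3%. Of the 13 genes with a called interaction, 5 were more positive and 8 more negative in cKO cells, and 2190 genes had an unadjusted interaction p under 0.05.

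**Figure D5:**
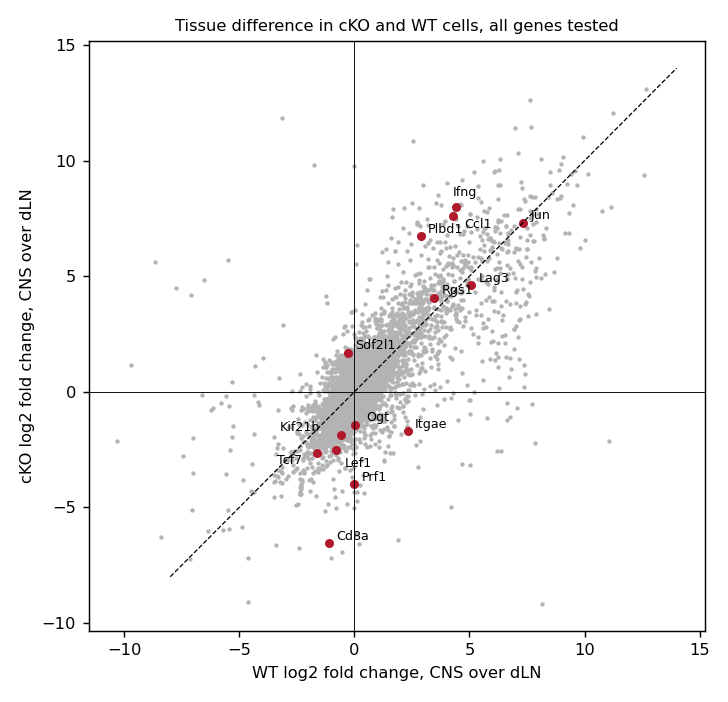
Log2 fold change of CNS over dLN in cKO cells (vertical) against that in WT cells (horizontal), 1 point per gene tested, with named genes in red and the line of equality dashed. Rgs1, Lag3 and Jun lie near the line, Ccl1, Plbd1 and Sdf2l1 above it, and Lef1, Ogt and Kif21b below it.

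Among genes outside the other-cell lists that averaged 10 CPM or more in some group, the 3 largest called differences in each direction were in Plbd1, Ccl1 and Sdf2l1 (more positive in cKO cells) and in Lef1, Ogt and Kif21b (more negative). Lef1 fell further in cKO cells, with a WT difference of -0.8 ± 0.23 and an interaction of -1.74 ± 0.30, adjusted p = 0.0472. Ogt, the enzyme that adds O-GlcNAc to proteins, stood at 54.1, 60.8, 43.5 and 40.5 CPM in cKO CNS and 129, 151, 146 and 114 CPM in cKO dLN libraries (-1.44 ± 0.14, adjusted p = 1.90e-06), but differed by 0.02 ± 0.16 in WT cells (interaction -1.46 ± 0.21, adjusted p = 0.0297). Among the cKO dLN libraries Lef1 and Ogt ranked 2, 3, 1, 4, the same order as CD8 RNA, which was low in WT dLN libraries. Without dLN libraries 2 and 3 the cKO difference was -2.18 for Lef1 and -1.29 for Ogt. The part of CD8 RNA in these differences was not tested. Kif21b, a kinesin, stood at 14.8, 13.99, 14.3 and 13.1 CPM in cKO CNS and 52.9, 55.5, 58.4 and 37.8 CPM in cKO dLN libraries, with an interaction of -1.28 ± 0.22, adjusted p = 0.0472. Plbd1, a phospholipase of myeloid cells, stood at 86.3, 88.8, 50.03 and 52.2 CPM in cKO CNS and 0.259, 0.895, 0.561 and 0.859 CPM in cKO dLN libraries, with an interaction of 3.84 ± 0.66, adjusted p = 0.0472. These calls hang on single libraries: none of 11589 genes was called without cKO dLN library 1, 2 or 3, WT CNS library 1, 2 or 3, or WT dLN library 1 or 2, and 648 were called without cKO dLN library 4.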

How the data were processed

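Bulk RNA-seq (SMART-Seq2, Nextera XT) was used from the 14 CHD1 libraries: 4 cKO CNS, 4 cKO dLN, 3 WT CNS and 3 WT dLN. The deposited values are expected counts per gene symbol from RSEM 1.3.3 on mm10, per the submitters' processing notes, given as whole numbers; aligner, annotation and rounding are not given in the sources used here. Positions come from GENCODE M21 (GRCm38) and promoters from RefSeq (GRCm38.p6). CNS and dLN came as separate tables, and whether they were counted together is not given in the sources used here, so organ, table and preparation cannot be told apart.

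The tables were joined by symbol and fitted together in edgeR 4.0.16 (R 4.3.3): filterByExpr by group (minimum count 10, total 15), TMM scaling, 1 mean per group, glmQLFit and glmQLFTest, with Benjamini-Hochberg adjustment over 11589 genes. Contrasts were CNS minus dLN in cKO cells, the same in WT cells, and their difference (interaction). The standard error is the log2 fold change over the root of F. A fold against a group at 0 uses a floor of 3 counts over the group's libraries together; it covers counting error only, since reads carry no molecular identifiers. The script was tested on simulated data. All 18 replicate pairs differed by more than sampling noise (chi-square per degree of freedom at least 6.27).

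The members, the 46 gene lists (792 symbols) and the alternatives were chosen with earlier results of these data known. Named genes were Chd1, anchor genes of the lists, up to 4 further called members of a list, the 15 largest changes per direction among called, non-overlapping genes of at least 10 CPM outside other-cell lists (2784 qualified), and the 3 largest called interactions per direction; the text gives a selection, and a few genes are not reported here. Genes outside this rule (among them Itgae, Cxcr4, Ccr9, Itgb2, Itgal, Cd27, Tox, Btla, Chd9, the promoter examples, Cd81, Ctsz and Grn) were chosen after their values were seen. Alternatives were DESeq2 1.42.0, its size factors, no filter, a mean of at least 10 CPM, only the 8 cKO libraries, the replicate number as a block, removal of 13 repeat and 3 ribosomal RNA features, equal depth, removal of other-cell genes, each library left out and, added later, no cKO dLN libraries 2 and 3.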

Additional observations from a re-analysis of the deposited data

Results flagged for a closer look

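In 276 groups of 4 libraries, a library far from its fellows was sought with Dixon's 95% critical value; chance alone flags about 1 in 20. CNS library 2 stood low in Cd3e (368 CPM, the others 596 to 625), Cd4 (129 CPM, the others 199 to 213) and S100a4 (180 CPM, the others 521 to 571). The same library stood high in Il5 (17.1 CPM), Chac1 (9.27 CPM), Entpd1 (127 CPM), Oas1a (48.6 CPM), Gbp2 (357 CPM) and Ccl24 (469 CPM). CNS library 3 stood high in Ccr9 (4.04 CPM), Havcr2 (33.4 CPM), Abcg1 (21.6 CPM) and in the immunoglobulin gene Igkc (357 CPM, the others 11.1 to 23.4), and its B and plasma cell list summed to 481 CPM, the other CNS libraries to 108 to 145 CPM. CNS library 4 stood low in myeloid RNA (9960 CPM summed), with C1qa at 422 CPM and Cd81 at 213 CPM.

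In the dLN, library 4 stood high in Il5 (0.286 CPM), Havcr2 (2.29 CPM), Tyms (68.4 CPM) and neutrophil RNA (75.3 CPM summed, the others 1.82 to 6.56), and low in Rasgrp2 (102 CPM) and in vascular and stromal RNA (32.6 CPM summed). dLN library 2 stood high in Ccl4 (3.88 CPM), and dLN library 3 in Il13 (1.12 CPM).

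The interaction of genotype and tissue was called for Ccl1 (3.32 on the log2 scale), Plbd1 (3.84) and Sdf2l1 (1.98), more positive in cKO, and for Lef1 (-1.74), Ogt (-1.46), Kif21b (-1.28) and Cd8b1 (-3.97), more negative in cKO. Their causes were not tested. None of these calls remained without cKO dLN library 1, 2 or 3, WT CNS library 1, 2 or 3, or WT dLN library 1 or 2. Cd8b1 is part of the CD8 RNA that, among dLN libraries, stood high in cKO ones only.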

How the results depend on the processing

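The cKO counts, 2854 higher and 2626 lower, lay between 2521 and 3082 higher and between 2212 and 2700 lower when single libraries were left out (4737 to 5570 called in all), and no gene was called in the opposite direction under any alternative. Requiring a mean of at least 10 CPM tested fewer genes and left 3418 called (1675 higher, 1743 lower) and 1225 in WT cells, against 1938. Without cKO dLN libraries 2 and 3, an alternative added after the data were seen, 3650 were called, 1608 of them lower; fewer samples entered. With DESeq2 size factors the median of all genes was 0.03, against -0.02.

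Among the counts examined, the interaction count varied most: 13 became 563 with DESeq2, 7 with DESeq2 size factors, 172 with no filter, 95 at 10 CPM, 5 with other-cell genes removed, 1 without cKO dLN libraries 2 and 3, and 0 to 648 when single libraries were left out; the cause was not tested. Same-numbered CNS and dLN libraries correlated at 0.012, 0.118, -0.004 and 0.193 in cKO cells and at 0.048, 0.172 and -0.019 in WT cells. Of the 7 CNS libraries, 3 (cKO 2 and 4, WT 2) correlated best with the dLN library of their own number. With so few libraries these values cannot tell whether the numbers pair the samples. With the replicate block 5301 genes were called in cKO cells (2798 higher, 2503 lower), 1704 in WT cells and 52 for the interaction. Some genes changed sign in cKO cells: leaving out single libraries gave -0.23 to 0.12 for Chd1, -0.10 to 0.42 for Foxp3 and -1.04 to 1.82 for Igkc. Low dLN counts limit folds of genes near 0 there.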
